A study of Mus musculus with 18 samples.

Results

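The platelet-derived growth factor (PDGF) system was followed through its 2 receptor genes, Pdgfra and Pdgfrb, and its 4 ligand genes, Pdgfa, Pdgfb, Pdgfc and Pdgfd. Members were taken by symbol from a count table of 23420 gene symbols, so they are 6 of 23420, and all 6 passed the filter on low counts in every comparison. The table came from the brains of Camk2a-Cre-Rpl22HA mice, a genotype that every group shared. In these mice Cre is driven by the Camk2a promoter, which is active in forebrain excitatory neurons, and it puts an HA tag on Rpl22, a protein of the large ribosomal subunit. The 3 conditions were control mice that carried no tumor, mice with glioma cells implanted in the cortex (tumor), and such tumor-bearing mice given AZD8055, which blocks the mTOR kinase at its ATP site (AZD). From each condition, total RNA (input) and polysomal RNA pulled down through the tag (IP) were sequenced in 3 libraries, which gave 6 groups and 18 libraries. The labels give neither age, sex, dose, the name of the glioma line nor any gene introduced into it. If the line carries an introduced gene of a member, its reads could enter that member's row, and the counts per symbol cannot tell them from reads of the mouse gene.

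PDGF ligands are secreted as disulfide-linked dimers and act through receptor tyrosine kinases on the receiving cell. In the brain, PDGF receptor alpha (Pdgfra) marks oligodendrocyte precursor cells and glioma cells of that lineage, and PDGF-AA, the homodimer of Pdgfa, is a mitogen for those precursors. PDGF receptor beta (Pdgfrb) is carried by pericytes and other mural cells of blood vessels, which are recruited by PDGF-B from the endothelium. PDGF-A and PDGF-B are cut by furin-type convertases inside the cell, whereas PDGF-C and PDGF-D carry a CUB domain that extracellular proteases must remove.

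Library totals lay between 13561511 and 34178417 counts. Levels are given as CPM, counts scaled to library size with TMM factors over all libraries, as mean ± SD over 3 libraries, and no level was corrected for transcript length, so levels are compared within a gene only. The labels do not say that each replicate number is a separate animal, so the spread behind the p-values is one between libraries and may be partly technical. Library names fall into 3 sets: control and tumor input in one, control and tumor IP in another, and every AZD library in the remaining set. Tumor and control of a fraction share a set, as do both AZD fractions. For AZD against tumor or control, and for IP against input in control and tumor, set and group cannot be told apart. No gene of the marker lists used below was at 0 in all libraries of a group, those of cells other than excitatory neurons included.

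The promoter windows of Pdgfra and Pdgfa are shown because these were the members whose level was higher in tumor than in control in both fractions. They come from RefSeq on GRCm38.p6, run from 250 bases before to 50 bases after an annotated start, and are printed 5′ to 3′ on the strand of the gene. All 3 windows lie inside the gene spans given below, so none is at the outer end of its gene. The 2 Pdgfa windows are numbered by coordinate, so the first lies downstream of the second on the minus strand. Capitals mark matches, on either strand, to the CCAAT box, the TATA box (letters TATAAA), the GC box (letters GGGCGG) or the E-box (letters CANNTG).
Pdgfra, chr5:75152001-75152300, plus strand: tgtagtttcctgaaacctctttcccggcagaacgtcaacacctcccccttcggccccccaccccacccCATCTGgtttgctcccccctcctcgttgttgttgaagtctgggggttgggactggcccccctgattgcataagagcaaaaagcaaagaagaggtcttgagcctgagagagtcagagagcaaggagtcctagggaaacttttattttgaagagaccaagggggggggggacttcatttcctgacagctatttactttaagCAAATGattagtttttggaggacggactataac
Pdgfa first window, chr5:138994232-138994531, minus strand: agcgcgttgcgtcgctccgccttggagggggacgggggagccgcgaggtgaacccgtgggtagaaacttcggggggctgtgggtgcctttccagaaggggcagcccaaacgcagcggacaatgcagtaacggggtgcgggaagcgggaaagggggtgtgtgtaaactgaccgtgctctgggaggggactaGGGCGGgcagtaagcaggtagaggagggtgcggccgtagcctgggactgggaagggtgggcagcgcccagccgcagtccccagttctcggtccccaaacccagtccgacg
Pdgfa second window, chr5:138994895-138995194, minus strand: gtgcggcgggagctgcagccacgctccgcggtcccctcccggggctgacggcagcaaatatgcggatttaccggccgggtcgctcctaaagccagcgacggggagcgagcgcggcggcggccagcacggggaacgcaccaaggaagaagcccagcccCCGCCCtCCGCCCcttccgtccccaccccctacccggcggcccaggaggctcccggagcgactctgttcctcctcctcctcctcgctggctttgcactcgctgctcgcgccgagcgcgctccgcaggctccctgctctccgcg
The Pdgfra window had a GC content of 51.0% and held 2 E-boxes, at positions 69 and 268 counted from its first base. The first Pdgfa window had a GC content of 67.0% and held 1 GC box at position 191. The second had a GC content of 73.3% and held 2 GC boxes, at positions 158 and 165, both read from the opposite strand. None of the 3 windows held the letters of the CCAAT box or the TATA box. Over 32817 windows of the same length the median GC content was 52.7%, and 72.3% held an E-box, 35.6% a GC box, 37.4% a CCAAT box and 13.6% a TATA box. A match describes letters and is not a binding site. Windows of 4 of the 6 members were found in the RefSeq table.

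Pdgfra was the member with the widest range over the groups. Its gene lies on chromosome 5 from 75151322 to 75198206 (GRCm38). In input the control libraries stood at 129, 89.4 and 87.2 CPM (102 ± 23.6), and the tumor libraries at 3268, 2188 and 2607 CPM (2688 ± 545). The ranges were far apart, with every tumor library above every control library. In IP the control libraries stood at 121, 86.9 and 80.3 CPM (95.9 ± 21.6) and the tumor libraries at 2520, 1983 and 2382 CPM (2295 ± 279). Again the groups did not overlap. The tumor-over-control difference was 26.0-fold in input (log2 fold 4.70 ± 0.25 SE, edgeR adjusted p = 9.31e-07) and 24.5-fold in IP (4.62 ± 0.21, adjusted p = 1.33e-07). In bulk RNA, more cells of a type and more RNA per cell cannot be told apart.

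With AZD the receptor's level parted between the fractions. AZD input held 1875, 1657 and 1231 CPM of Pdgfra (1587 ± 327), and AZD IP held 347, 247 and 278 CPM (291 ± 51.4). All input libraries of the treated tumor thus lay below those of the untreated tumor and above those of control, while the IP libraries lay far nearer to control. In IP Pdgfra fell 8.10-fold from tumor to AZD (log2 fold -3.02 ± 0.19, edgeR adjusted p = 7.52e-07) and stayed 3.03-fold above control (1.60 ± 0.18, adjusted p = 0.000131). In input it was 15.8-fold above control (3.98 ± 0.24, adjusted p = 3.74e-06). The difference between AZD and tumor input was 1.65-fold (log2 fold -0.72 ± 0.22) and just past the threshold (adjusted p = 0.0433). That call was lost in 6 of 9 fits that left out a library: without control input replicate 2 (adjusted p = 0.0619) or 3 (0.0568), tumor input replicate 1 (0.0755) or 3 (0.0663), or AZD input replicate 2 (0.106) or 3 (0.154). The log2 fold over the 9 fits ran from -0.86 to -0.55, and over genes with a mean of at least 5 CPM it was -0.69 with an adjusted p of 0.0532.

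Markers of oligodendrocyte precursors and of glioma of that lineage rose with Pdgfra from control to tumor but parted from it in AZD IP. All 14 genes of that list rose from control to tumor in input (median log2 fold 3.33, range 1.35 to 4.61) and in IP (median 3.28), against a median over all genes of -0.01 in input and 0.02 in IP. Over all genes 24.5% were higher in input and 26.1% in IP. Pdgfra's own fold lay above those of all 14 in both fractions. The summed level of the list ran from 711 to 801 CPM in control input, 5253 to 5594 in tumor input and 2430 to 3118 in AZD input, and in IP from 544 to 727, 3955 to 4432 and 429 to 557 CPM. The sum in AZD IP thus did not stand above that in control IP, whereas Pdgfra stayed 3.03-fold above control there. Its fold of AZD over control in IP lay above those of all 14 markers. In input, 12 of the 14 fell from tumor to AZD (median -1.20), beside 9.17% of all genes. Pdgfra's difference there was smaller in size than that of 11 of the 14. Cspg4, the NG2 proteoglycan of precursor cells, stood at 34.7 ± 9.29 CPM in control input, 741 ± 76.7 in tumor input, 449 ± 78.3 in AZD input and 75.7 ± 7.60 in AZD IP. The part of this marker list in the Pdgfra values was not tested.

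**Figure D1:**
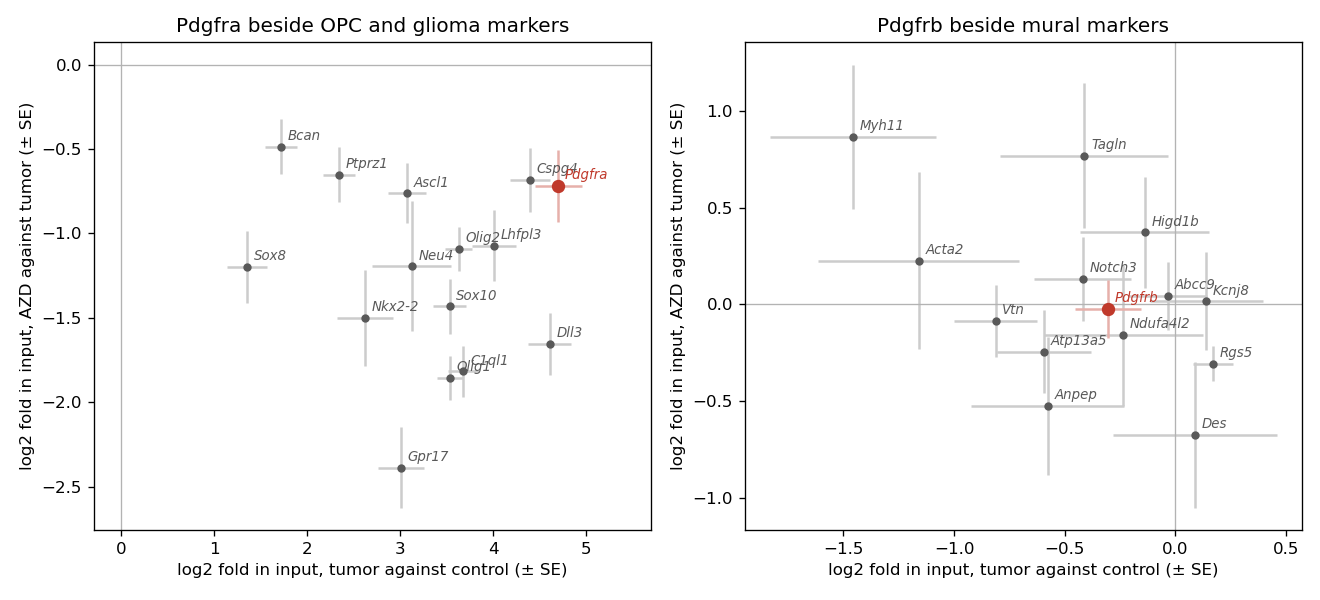
Log2 fold of tumor over control (horizontal) against log2 fold of AZD over tumor (vertical), both in input, for Pdgfra beside the 14 precursor and glioma markers (left) and Pdgfrb beside the 13 mural markers (right); each point is a gene and its bars are ± SE from edgeR. Pdgfra, in red at 4.70 and -0.72, lies farthest right in its panel, near Cspg4, and Pdgfrb, at -0.30 and -0.02, lies among the mural genes.

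Pdgfrb behaved differently from Pdgfra in that its level did not pass the test between tumor and control in either fraction. It lies on chromosome 18 from 61045127 to 61085067 (GRCm38). Control input held 32.6, 31.0 and 31.7 CPM of Pdgfrb (31.8 ± 0.774), tumor input 22.0, 32.9 and 23.2 (26.0 ± 5.99), and AZD input 24.4, 24.6 and 25.8 (24.9 ± 0.784). Tumor overlapped both other groups because of its replicate 2, while AZD lay below control in every library. The log2 fold of tumor over control was -0.30 ± 0.15 in input (edgeR adjusted p = 0.111), and without tumor input replicate 2 it was -0.51 with an adjusted p of 0.0067. The fold of AZD over control was -0.33 ± 0.15 (adjusted p = 0.107), and without that same library the adjusted p was 0.0325. AZD over tumor was -0.02 in input.

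Control IP held 19.2, 22.8 and 19.9 CPM of Pdgfrb (20.6 ± 1.86), tumor IP 14.2, 21.1 and 16.0 (17.1 ± 3.58), and AZD IP 5.23, 3.12 and 5.80 (4.72 ± 1.41). The AZD libraries were the lowest of all 18 and overlapped no other group. Pdgfrb fell 3.73-fold in IP from tumor to AZD (log2 fold -1.90 ± 0.22, edgeR adjusted p = 4.24e-05) and was 4.41-fold lower there than in control IP (-2.14 ± 0.22, adjusted p = 7.35e-05), whereas the difference between tumor and control IP was -0.24 ± 0.20 (adjusted p = 0.353). Markers of pericytes and smooth muscle, the cells that carry this receptor, stood at 27.1 to 45.9 CPM in sum in AZD IP, below the 125 to 161 of tumor IP and the 155 to 178 of control IP. In IP 12 of these 13 genes fell from tumor to AZD (median -1.94), beside 33.5% of all genes. In input, 3 of 13 fell from control to tumor (median -0.41), beside 23.6% of all genes. That count is near the share of all genes and is no result about the list. The sum of the list ran from 211 to 245 CPM in control input, 164 to 202 in tumor input and 154 to 187 in AZD input. Rgs5, a regulator of G protein signalling in pericytes, stood at 57.2 ± 3.70 CPM in tumor IP and 12.3 ± 1.71 in AZD IP. The part of these cells in the Pdgfrb values was not tested.

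Among the ligands, Pdgfa alone had a called increase in tumor over control in both fractions. It encodes the PDGF-A chain, a ligand of the alpha receptor, and lies on chromosome 5 from 138976014 to 139000792 (GRCm38). Its level was 22.7, 15.6 and 16.1 CPM in the control input libraries (18.1 ± 3.97), 126, 53.9 and 47.4 in those of tumor (75.9 ± 43.8), and 57.9, 29.6 and 31.7 in those of AZD (39.7 ± 15.8). Every tumor library lay above every control library, and tumor replicate 1 was the highest of them by a wide margin. The increase was 4.14-fold in input (log2 fold 2.05 ± 0.39, edgeR adjusted p = 0.00203), and without tumor input replicate 1 the log2 fold was 1.46 (adjusted p = 0.0124). Whether reads of an introduced gene add to these tumor levels was not tested. AZD and tumor overlapped in input, and the fold between them was -0.89 ± 0.37 (adjusted p = 0.123), though without AZD input replicate 1 it was -1.28 with an adjusted p of 0.0457. Over control input, AZD was higher by a log2 fold of 1.16 ± 0.38 (adjusted p = 0.036), and that call was lost without control input replicate 1 (1.37, 0.0522), 2 (1.06, 0.112) or 3 (1.08, 0.113), or AZD input replicate 1 (0.78, 0.149).

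Control IP held 16.4, 13.3 and 14.3 CPM of Pdgfa (14.7 ± 1.55), tumor IP 99.0, 54.9 and 44.8 (66.2 ± 28.8), and AZD IP 17.2, 14.2 and 15.4 (15.6 ± 1.55). The AZD libraries overlapped control, and tumor stood above both. Pdgfa rose 4.62-fold from control to tumor (log2 fold 2.21 ± 0.26, edgeR adjusted p = 8.19e-05) and fell 4.38-fold from tumor to AZD (-2.13 ± 0.26, adjusted p = 6.18e-05). AZD and control IP differed by 0.08 ± 0.26 (adjusted p = 0.846). Over the 18 libraries the log2 levels of Pdgfa and Pdgfra had a Pearson r of 0.893, a description over libraries that share their conditions, sets and depth. Pdgfa's tumor-over-control fold was below that of 12 of the 14 precursor markers in both fractions.

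Pdgfb, the chain that recruits pericytes and binds both receptors, moved over a narrow range. It lies on chromosome 15 from 79995865 to 80024614 (GRCm38). Its level was 28.6, 23.4 and 23.7 CPM in the control input libraries (25.3 ± 2.92), 21.7, 16.7 and 17.6 in those of tumor (18.6 ± 2.68), and 16.0, 17.7 and 17.2 in those of AZD (17.0 ± 0.850). Control was the highest group and overlapped neither other group. Pdgfb was lower in tumor than in control input by a log2 fold of -0.45 ± 0.14 (edgeR adjusted p = 0.0221) and lower in AZD than in control input by -0.55 ± 0.14 (adjusted p = 0.0129). The first call was lost without control input replicate 1 (-0.34, 0.0972), tumor input replicate 2 (-0.38, 0.0755) or tumor input replicate 3 (-0.41, 0.0621), and with scaling to library totals alone (-0.36, 0.07). The second was lost without control input replicate 1 (-0.44, 0.057).

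Control IP held 24.6, 23.0 and 24.3 CPM of Pdgfb (24.0 ± 0.822), tumor IP 22.6, 15.9 and 19.8 (19.4 ± 3.40), and AZD IP 20.6, 26.3 and 24.4 (23.8 ± 2.92). Every tumor library lay below control, and the AZD libraries overlapped both groups. No difference passed the test: tumor over control was -0.27 ± 0.14 (edgeR adjusted p = 0.145), AZD over tumor 0.26 ± 0.14 (adjusted p = 0.14) and AZD over control -0.01 (adjusted p = 0.972). Without tumor IP replicate 1, the first was -0.41 (adjusted p = 0.0299) and the second 0.40 (adjusted p = 0.0241). Endothelial markers, whose cells are a known source of PDGF-B, stood in sum at 215 to 308 CPM in control IP, 157 to 216 in tumor IP and 35.2 to 59.0 in AZD IP. All 12 fell from tumor to AZD in IP (median log2 fold -2.18), beside 33.5% of all genes.

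Pdgfc and Pdgfd, the ligands with a CUB domain, did not pass the test between tumor and control in either fraction. Pdgfc lies on chromosome 3 from 81036416 to 81214040 (GRCm38). Control input held 11.6, 9.37 and 10.8 CPM of it, tumor input 10.1, 7.26 and 10.1, and AZD input 9.62, 11.1 and 8.11, and the 3 groups overlapped. Control IP held 12.9, 11.6 and 10.6 CPM of it, tumor IP 12.9, 13.5 and 10.8, and AZD IP 17.2, 13.9 and 13.3. There AZD lay above control in every library and overlapped tumor. Its log2 folds between conditions ran from -0.23 ± 0.19 (tumor over control input, edgeR adjusted p = 0.322) to 0.33 ± 0.15 (AZD over control IP, adjusted p = 0.109).

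Pdgfd, a ligand of the beta receptor, stood higher with AZD in input and lower with AZD in IP. Its gene lies on chromosome 9 from 6168363 to 6534284 (GRCm38) and overlaps Ddi1, and whether the counting used strand is not given in the sources used here. Control input held 3.44, 2.77 and 3.43 CPM of it, tumor input 3.10, 2.94 and 3.70, and AZD input 4.31, 4.30 and 6.02. Every AZD input library was higher than every library of the other groups. The log2 fold of AZD over tumor was 0.63 ± 0.22 (edgeR adjusted p = 0.0755). Over control it was also 0.63 ± 0.23 with an adjusted p of 0.0491, a call lost in 8 of 9 fits that left out a library, with adjusted p up to 0.175 without AZD input replicate 3.

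Control IP held 2.25, 2.33 and 2.61 CPM of Pdgfd, tumor IP 2.31, 2.29 and 3.31, and AZD IP 0.981, 0.707 and 1.55. The AZD libraries were the lowest 3 of the 18 and rested on only 12, 19 and 44 counts. Pdgfd fell 2.48-fold from tumor to AZD (log2 fold -1.31 ± 0.31, edgeR adjusted p = 0.004). Against control the difference was -1.14 ± 0.31 (adjusted p = 0.0169), and the call was lost without control IP replicate 3 (-1.05, 0.0644) or AZD IP replicate 2 (-0.88, 0.0665).

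**Figure D2:**
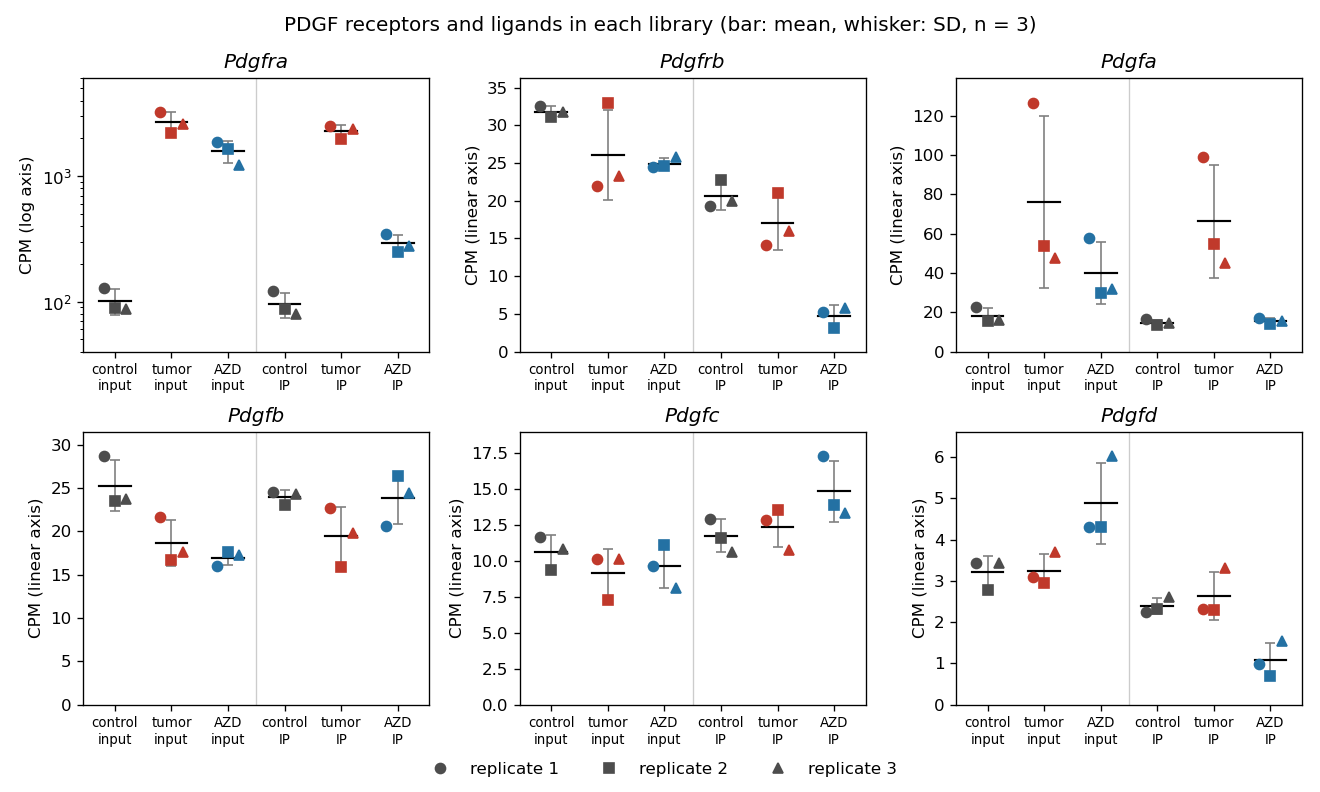
CPM of each member in each of the 18 libraries, by group; symbols are replicates, bars the mean and whiskers the SD (n = 3), with a log axis for Pdgfra and linear axes from 0 for the others. Tumor stands above control in both fractions for Pdgfra and Pdgfa, and AZD IP is the lowest group for Pdgfrb (4.72 ± 1.41) and Pdgfd.

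Counted over the members, tumor against control in input gave 2 higher and 1 lower of 6, where 24.5% of 15511 genes tested were higher and 23.6% lower. In IP it gave 2 higher and 0 lower, where 26.1% of 15734 genes were higher and 20.9% lower. AZD against tumor gave 0 higher and 1 lower in input (7.89% and 9.17% of genes) and 0 higher and 4 lower in IP (25.1% and 33.5%). AZD against control gave 3 higher and 1 lower in input (20.7% and 16% of genes) and 1 higher and 2 lower in IP (16% and 17.4%). Some of these counts are near the shares of all genes, and others, such as the 4 lower for AZD against tumor in IP, lie farther off. With only 6 members, none of them is a result about the members as a set, and the comparisons of a fraction share libraries. The median log2 fold of the 6 members was -0.12 for tumor over control in input, against -0.01 over all genes, and 0.14 in IP, against 0.02. For AZD over tumor in IP it was -1.61, against -0.09 over all genes.

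**Figure D3:**
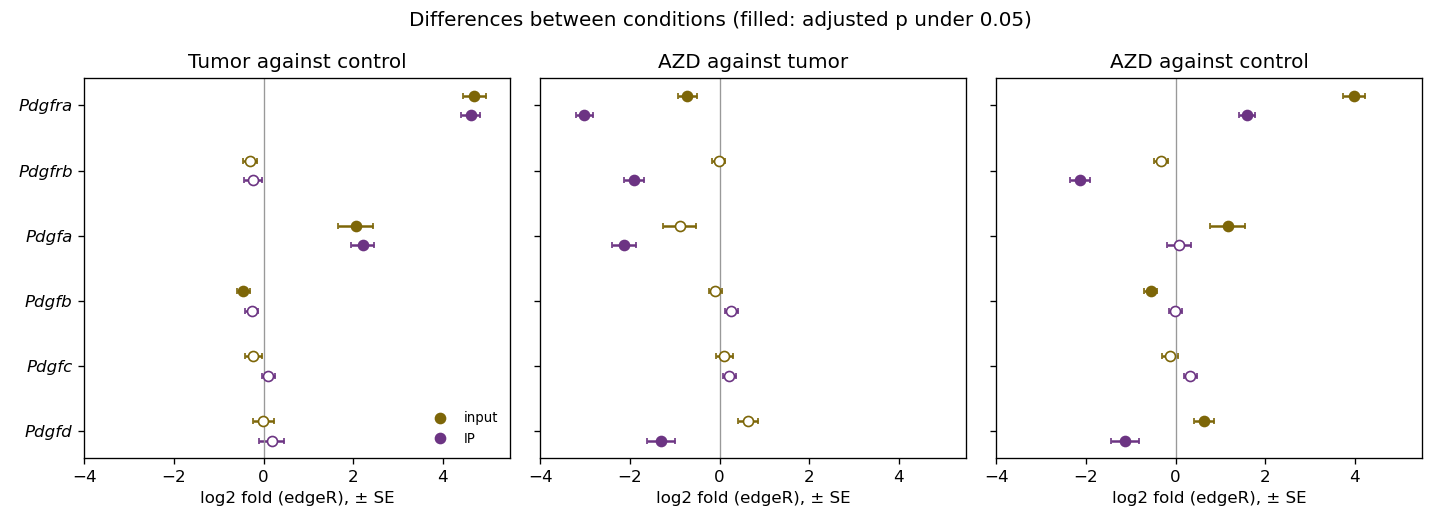
Log2 fold (± SE, edgeR) of each member between conditions, in input (brown) and IP (purple); filled points have an adjusted p under 0.05. Input and IP lie together for tumor against control, and for AZD against tumor Pdgfra (-0.72 and -3.02), Pdgfrb (-0.02 and -1.90) and Pdgfd (0.63 and -1.31) lie apart.

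The IP was then set against the input of the same condition. Each fold compares scaled levels of the 2 fractions and is not an amount of RNA recovered. How much of a member's RNA in the IP came with tagged polysomes was not tested. In control, Pdgfrb alone was called, lower in IP by a log2 fold of -0.65 ± 0.09 (edgeR adjusted p = 0.000276), 1 of 6, where 17.7% of 14958 genes were higher and 18.8% lower. Pdgfra stood at -0.11 ± 0.16, Pdgfa at -0.32 ± 0.14 and Pdgfd at -0.44 ± 0.20, with adjusted p of 0.628, 0.0914 and 0.108. Pdgfb (-0.10) and Pdgfc (0.12) lay near 0. With the replicate number as a block, which pairs input and IP, Pdgfa was also called in control at -0.32 (adjusted p = 0.0171). Scaling to library totals alone called it too (-0.42, adjusted p = 0.042).

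In tumor, edgeR called 0 of 6 members, where 2.11% of 15245 genes were higher and 2.98% lower; 2 members had an unadjusted p under 0.05 (1 higher, 1 lower), and DESeq2 called 0. The folds were -0.22 ± 0.19 for Pdgfra (adjusted p = 0.562), -0.60 ± 0.21 for Pdgfrb (0.158), -0.18 ± 0.45 for Pdgfa (0.868), 0.44 ± 0.18 for Pdgfc (0.231) and -0.29 ± 0.23 for Pdgfd (0.535). The paired log2 ratios of Pdgfrb were -0.63, -0.64 and -0.54, closer to each other than its levels were. With the replicate block, Pdgfrb (-0.60, adjusted p = 4.71e-05) and Pdgfc (0.45, adjusted p = 0.0127) were called, and the count over all genes went from 776 to 5433. With all 18 libraries in 1 fit, Pdgfrb was called as well (-0.61, adjusted p = 0.0394).

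With AZD all 6 members were called between the fractions, 2 higher and 4 lower in IP, where 29% of 15040 genes were higher and 32.5% lower. Both receptors were lower in IP, Pdgfra by a log2 fold of -2.44 ± 0.19 (5.44-fold, edgeR adjusted p = 4e-05) and Pdgfrb by -2.40 ± 0.22 (5.29-fold, adjusted p = 7.49e-05). The ligands split. Pdgfa (-1.35 ± 0.25, adjusted p = 0.00181) and Pdgfd (-2.15 ± 0.33, adjusted p = 0.000726) were lower in IP, and Pdgfb (0.50 ± 0.13, adjusted p = 0.00959) and Pdgfc (0.63 ± 0.17, adjusted p = 0.0118) were higher. The higher calls depend on the scaling: with library totals alone the median of all genes moved by -0.28, and Pdgfb stood at 0.22 (adjusted p = 0.167) and Pdgfc at 0.35 (adjusted p = 0.113), still above the median over all genes of -0.30.

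Marker lists of the cells around these genes moved in the same comparison. In AZD IP against AZD input all 14 markers of precursors and their glioma (median -2.21), 12 of 13 of mural cells (-2.34), all 12 of endothelium (-2.68) and 9 of 10 of fibroblasts (-2.58) were lower. All 10 astrocyte genes (-2.20), 9 of 11 microglial (-2.43), all 10 oligodendrocyte (-2.14), all 9 inhibitory-neuron (-1.95) and 9 of 10 proliferation genes (-2.17) were lower too. All 12 excitatory-neuron genes were higher (median 1.37), and their sum went from 2113 to 2680 CPM in AZD input to 6143 to 6834 in AZD IP. The folds of Pdgfra and Pdgfrb lay inside the range of the precursor and mural lists, while Pdgfb lay above all 12 endothelial genes and Pdgfa above 13 of 14 precursor markers. Over all genes 29% were higher and 32.5% lower, and the median was -0.02. In control the same lists had medians between -0.58 (endothelium) and 0.31 (excitatory neurons), and in tumor between -0.57 (endothelium) and 0.35 (excitatory neurons).

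**Figure D4:**
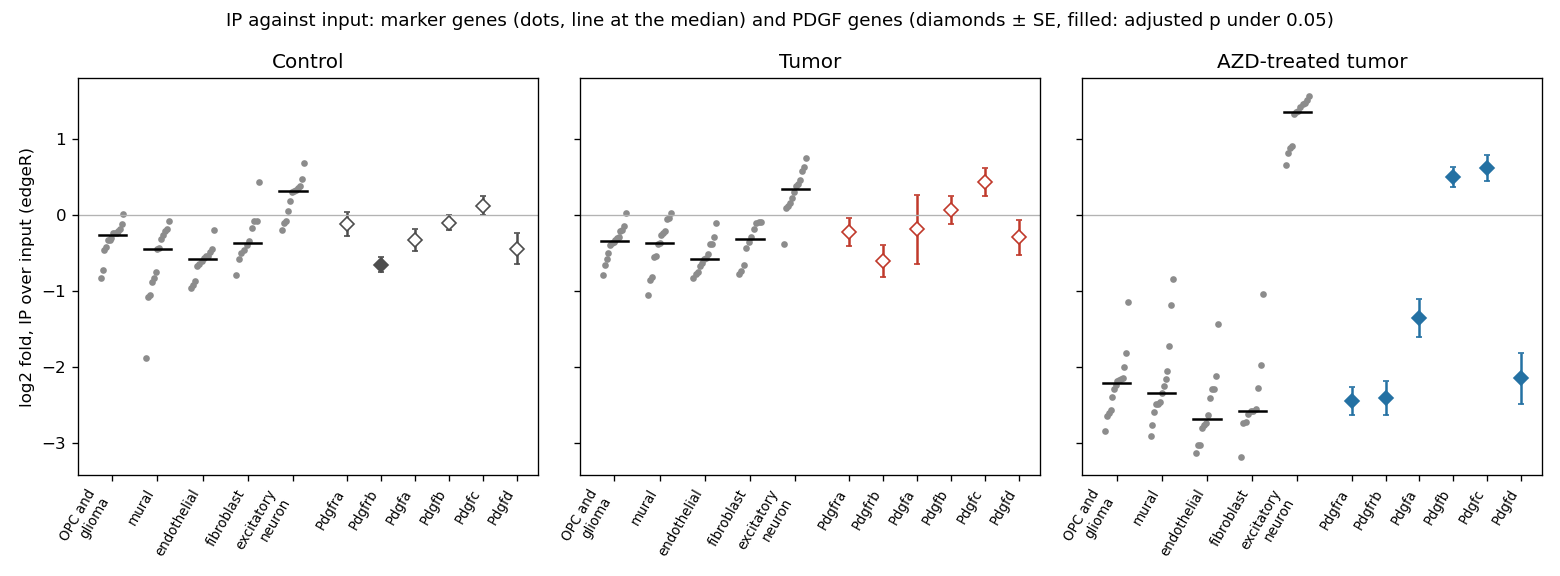
Log2 fold of IP over input (edgeR, vertical axis) in each condition, for the genes of 5 marker lists (grey dots, line at the median) and for the 6 members (diamonds ± SE, filled where the adjusted p is under 0.05). With AZD the receptors lie at -2.44 and -2.40, level with the non-neuronal lists, and Pdgfb (0.50) and Pdgfc (0.63) lie between 0 and the excitatory-neuron median of 1.37.

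Whether a member's change in IP differed from its change in input was tested as a contrast over all 18 libraries. For tumor against control edgeR called 0 of 6 members, with 0.05% of 16016 genes higher and 0.0187% lower; 0 members had an unadjusted p under 0.05 and DESeq2 called 0. For AZD against tumor 0 were higher and 3 lower, where 12.3% of genes were higher and 20.8% lower, and DESeq2 called 4. The change of Pdgfra in IP minus its change in input was -2.24 ± 0.30 on the log2 scale (edgeR adjusted p = 4.32e-05), that of Pdgfrb -1.82 ± 0.28 (adjusted p = 0.000143) and that of Pdgfd -1.88 ± 0.37 (adjusted p = 0.0011). Pdgfa stood at -1.18 ± 0.50 (adjusted p = 0.0771), Pdgfb at 0.41 ± 0.20 (adjusted p = 0.118) and Pdgfc at 0.17 (adjusted p = 0.607). The replicate block also called Pdgfa (-1.15, adjusted p = 4.82e-06) and Pdgfb (0.41, adjusted p = 0.0182), and DESeq2 called Pdgfa (-1.16, adjusted p = 0.0497). Without tumor input replicate 1 Pdgfa was at -1.76 (adjusted p = 0.0033), without tumor IP replicate 3 at -1.40 (0.0434), and without tumor IP replicate 1 Pdgfb was at 0.56 (0.0413). The same contrast had medians of -1.87 for the precursor list, 13 of 14 lower, -1.82 for the mural list, 9 of 13 lower, and 0.93 for the excitatory-neuron list, 7 of 12 higher, against -0.04 over all genes.

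Of the genes that cut, bind or clear PDGF ligands, 6 of 11 were higher and 1 lower in tumor than in control input (median log2 fold 0.86), where 24.5% of all genes were higher and 23.6% lower (median -0.01). In IP 7 were higher and 0 lower (median 0.80), beside 26.1% and 20.9% of all genes (median 0.02). A2m, a plasma protease inhibitor that binds growth factors, rose by 3.51 ± 0.62 in input, Plat, the tissue plasminogen activator that activates PDGF-C, by 1.51 ± 0.33, and Pcsk6, a furin-type convertase, by 0.98 ± 0.16. The convertase Pcsk5 fell by 0.77 ± 0.14. Furin itself (0.00) and Plau, the urokinase known to activate PDGF-D (0.13), did not pass. St14, another protease gene of this list, was higher in input (1.15 ± 0.37, edgeR adjusted p = 0.0244) and in IP (1.62 ± 0.39, adjusted p = 0.00608). From tumor to AZD in IP, 1 of 11 rose and 8 fell (median -1.24), beside 25.1% and 33.5% of all genes (median -0.09), among them Pcsk6 (-3.44 ± 0.21), the matrix protein Sparc, which binds PDGF (-2.34 ± 0.22), and the endocytic receptor Lrp1 (-1.24 ± 0.15). In AZD IP against AZD input 1 was higher and 7 lower (median -1.19), beside 29% and 32.5% of all genes.

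Genes of the proteins that carry the receptor signal were called in both directions. In tumor over control 9 of 29 rose and 3 fell in input (median 0.17), beside 24.5% and 23.6% of all genes, and 8 rose and 2 fell in IP (median 0.11), beside 26.1% and 20.9%. The higher counts are near the shares of all genes and are no result about the list. Gab1, a docking protein for PI3K and Shp2, rose by 2.13 ± 0.16 in input, the adaptor Crkl by 0.88 ± 0.11, the Src family kinase Fyn by 1.24 ± 0.16 and the PI3K regulatory subunit Pik3r1 by 1.02 ± 0.16. The Ras exchange factors Sos1 and Sos2 did not pass there. From tumor to AZD in IP 4 rose and 16 fell (median -0.27), beside 25.1% and 33.5% of all genes, led by Gab1 (-2.63 ± 0.10), Fyn (-1.30 ± 0.10) and Yes1 (-1.37 ± 0.16), with edgeR adjusted p of 9.05e-08, 2.48e-06 and 3.42e-05. In AZD IP against input 10 rose and 10 fell (median 0.02), near the 29% and 32.5% of all genes, with Gab1 at -2.26 ± 0.12 and the adaptor Grb2 at 0.87 ± 0.09. In input from tumor to AZD, 0 of 29 rose and Crkl alone fell (-0.44 ± 0.10, adjusted p = 0.0172), beside 7.89% and 9.17% of all genes.

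The related receptors and ligands, those of the Kit, Csf1r, Flt3 and VEGF branches, gave 2 of 15 higher and 5 lower in tumor over control input (median -0.34), beside 24.5% and 23.6% of all genes, and 1 higher and 4 lower in IP (median -0.19), beside 26.1% and 20.9%. The lower counts are near the shares of all genes and are no result about the list. In input Flt3 (-1.33 ± 0.22) and Il34, a ligand of the Csf1 receptor (-0.80 ± 0.20), fell. Vegfa, the endothelial growth factor, rose by 0.88 ± 0.23 and Kit, the stem cell factor receptor, by 0.51 ± 0.15. From tumor to AZD in IP 4 rose and 7 fell (median -0.57), beside 25.1% and 33.5% of all genes: the VEGF receptors Kdr (-2.56 ± 0.18) and Flt1 (-2.52 ± 0.25), Csf1r (-2.38 ± 0.24) and Kit (-1.76 ± 0.16) were those with the smallest adjusted p. In input from tumor to AZD, Vegfa (-1.24 ± 0.23, edgeR adjusted p = 0.00544) and Kit (-0.51 ± 0.15, adjusted p = 0.0412) were lower and 0 higher, beside 9.17% lower and 7.89% higher among all genes.

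The genes whose log2 levels were most like a member's over the 18 libraries were ranked by Pearson r among 11395 genes with a mean of at least 5 CPM. For Pdgfra these were Sapcd2 (0.996), the precursor marker Cspg4 (0.995), Shc4 (0.994), S1pr2 (0.993) and Kif4 (0.993), and for Pdgfa they were Tnfrsf1a (0.985), Slc39a1 (0.979), Sema4c, Adamts1 and Leprel1 (each 0.978). For Pdgfrb they included the laminin gene Lamb2 (0.977), the microglial receptor gene Csf1r (0.977) and Nckap1l (0.975). For Pdgfd the highest were Lfng (0.967) and Apod (0.954). Pdgfb (Rasgef1c, 0.879) and Pdgfc (B9d2, 0.853) had lower highest values. Between members, r was 0.864 for Pdgfrb with Pdgfd, -0.745 for Pdgfra with Pdgfb and -0.741 for Pdgfc with Pdgfd. The libraries share their conditions, sets and depth, so each r is a description.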

How the data were processed

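RNA of 18 libraries was compared. The authors deposited 1 table of raw counts for 23420 symbols, with no normalization. Per the labels' protocols, an RNeasy Mini kit gave the RNA and an NEBNext Ultra Directional kit the libraries. STAR, DESeq2 and mm10 are named in the submitters' processing notes. The counting tool, its strand setting, the annotation and all versions are not given in the sources used. Coordinates and promoter sequences came from RefSeq on GRCm38, whose table held 21571 of the symbols.

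The test for every gene was the quasi-likelihood F test of edgeR 4.0.16 (TMM, filterByExpr, R 4.3.3) and p-values were adjusted by Benjamini-Hochberg over all genes tested, with a threshold of 0.05. IP was compared with input in a fit of the 6 libraries of a condition, conditions within a fraction in a fit of 9, and IP minus input in a fit of all 18. An error beside a log2 fold is the fit's standard error. Levels are CPM, and correlations used log2 CPM with a prior count of 2.

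The members, the 13 other gene lists, the tests and the alternatives were chosen with earlier results of these data known. In each comparison a list could have its 4 genes of smallest adjusted p named, and 2 that missed the threshold, beside a fixed set of markers. St14 was named beside Plau outside that rule. Of the 166 list genes 164 were in the table; Hras was not matched, and Vegfd was not matched because the table lists it as Figf, which was used by that name. The likeness ranking left out symbols with Gm, Rik, -ps or -rs, and some of its genes are not reported here.

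Across 11864 genes, the deviations of same-number input and IP libraries from their group means had correlations of 0.322 to 0.371 (control), 0.665 to 0.887 (tumor) and 0.299 to 0.633 (AZD), so numbers were taken to pair input and IP. The main fits have no block, and a fit with the replicate block was an alternative. The others were DESeq2 1.42.0, RLE factors, library totals, no filter on low counts, a mean of at least 5 CPM, all 18 libraries in 1 fit and leaving out each library. The scripts were tested on simulated data. Figures were drawn with matplotlib 3.10.9.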

Additional observations from a re-analysis of the deposited data

Results flagged for a closer look

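The change from tumor to AZD differed between IP and input for 3 members in the contrast of IP minus input (edgeR, all 18 libraries, no replicate block). The log2 differences were -2.24 ± 0.30 for Pdgfra, -1.82 ± 0.28 for Pdgfrb and -1.88 ± 0.37 for Pdgfd. Pdgfd had only 12, 19 and 44 counts in the AZD IP libraries. With the replicate block, which pairs input and IP, Pdgfa and Pdgfb were called as well. All AZD libraries belong to 1 library set, so set and treatment cannot be told apart in the change from tumor to AZD. The 6 groups hold 3 libraries each, too few for a test of single outlying libraries.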

How the results depend on the processing

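The 66 member folds (6 members in 11 comparisons) held 27 calls, of which 8 were lost under at least 1 alternative, and 10 of the other 39 passed under at least 1. Among 648 folds with a library left out, 586 kept direction and side of the threshold, 24 lost and 8 gained a call, and 30 changed sign; among 439 under the other alternatives these numbers were 413, 7, 9 and 10. Every fold that changed sign was outside the threshold in both fits. In control IP against input the members called went from 1 to 2 with library totals only and with the replicate block, and in tumor IP against input from 0 to 2 with the block and 1 with all 18 libraries in 1 fit. In AZD against tumor input they went from 1 to 0 at a mean of at least 5 CPM and to 2 with the block, where Pdgfa was called (-0.83, edgeR adjusted p = 0.00691). The labels give no pairing of numbers between conditions. Same-number correlations of tumor and AZD input were 0.399, -0.106 and 0.353, which cannot decide whether numbers pair there. In IP minus input, AZD against tumor, the block gave 5 in place of 3. The block changed no other call of a member than those given beside the results and this Pdgfa call. Leaving out a library gave 1 member called throughout control IP against input, 0 in tumor and 6 with AZD. It gave 2 to 3 for tumor against control in each fraction, 0 to 2 (input) and 4 to 5 (IP) for AZD against tumor, and 1 to 4 (input) and 2 to 3 (IP) for AZD against control. For IP minus input it gave 0 (tumor against control) and 3 to 4 (AZD against tumor).

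Folds that changed sign, each uncalled, were as follows. Pdgfd in tumor against control input stood at 0.0017 (DESeq2), 0.0028 (RLE), 0.090 (library totals), 0.0051 (no filter) and 0.0094 (all 18 in 1 fit). Pdgfb stood at -0.0096 in tumor IP against input (library totals), and in AZD against control IP at 0.017 with DESeq2 and with RLE. Pdgfrb stood at 0.0037 in AZD against tumor input (mean of at least 5 CPM), and Pdgfc at -0.014 in IP minus input, AZD against tumor (library totals). With a library left out, IP minus input for tumor against control ran from -0.31 to 0.70 for Pdgfa, -0.059 to 0.24 for Pdgfd, -0.33 to 0.10 for Pdgfra and -0.15 to 0.23 for Pdgfrb. Control IP against input ran from -0.30 to 0.093 for Pdgfra, and tumor IP against input from -0.63 to 0.40 for Pdgfa and -0.084 to 0.20 for Pdgfb. AZD against tumor input ran from -0.18 to 0.028 for Pdgfb, -0.039 to 0.22 for Pdgfc and -0.13 to 0.18 for Pdgfrb, and tumor against control from -0.10 to 0.062 (input) and -0.023 to 0.28 (IP) for Pdgfd. AZD against control IP ran from -0.089 to 0.078 for Pdgfb. In AZD against control input, Pdgfd missed the threshold with RLE (adjusted p = 0.0507), no filter (0.0719) and all 18 in 1 fit (0.0603).

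Over all genes, tumor IP against input called 776, and 1728 with DESeq2, 455 at 5 CPM, 5433 with the block, 2225 in 1 fit and 120 to 653 with a library left out. IP minus input for tumor against control called 11, and 40, 17 (library totals) and 67 (block), with 5 to 20 when a library was left out. For AZD against tumor it called 5296, and 8025 with the block. With a library left out AZD against control called 3737 to 7289 (input) and 3429 to 6241 (IP), and AZD against tumor input 1359 to 2598. With library totals the all-gene median moved by -0.28 in AZD IP against input, -0.13 in AZD against tumor IP and -0.18 in its IP minus input. The causes of these shifts were not tested.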
